A study of Mus musculus with 16 samples.

Results

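Transcript levels in whole testis of wild-type C57BL/6 mice were compared between postnatal day 30 (P30) and postnatal day 21 (P21), with 2 Illumina bead arrays per age. The 4 arrays were taken by their titles from a series of 16 arrays, in which wild-type and Emi2 knockout mice are each sampled at 4 ages between P15 and P60, with 2 arrays in each of 8 groups. The Emi2 protein blocks the anaphase-promoting complex, a ubiquitin ligase whose activity lets a cell leave division. The labels do not say how the knockout allele was made. The knockout arrays (labelled EMI2_ko, same strain) and the wild-type arrays of P60 and P15 were used only to set the step beside them. The youngest age is P15 in the titles and in the age labels, and day 12 in the growth protocol, and P15 is used here. The labels give neither the animals behind an array nor pooling, so p-values cover no more than how far these arrays differ, and that spread may be technical.

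In the mouse the first wave of spermatogenesis runs through the testis in near synchrony after birth. Around P21 the most advanced germ cells are late spermatocytes and the earliest round spermatids, and by P30 spermatids have begun to elongate and to pack their chromatin. Spermatids are known for a large set of transcripts that other cells lack, while Sertoli and Leydig cells are the somatic cells that support the germ cells and make testosterone. In whole tissue, fewer cells of a type and less RNA per cell cannot be told apart.

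Gene names could not be used for these arrays. Of 25689 regular probes, 24272 had 1 gene symbol in the platform annotation, but the symbols did not go with the signals. Probes named for ribosomal proteins, which all cells make in quantity, were detected on both P30 wild-type arrays in 41 of 79 cases (51.9%), probes named for olfactory receptors in 574 of 1154 (49.7%), and all regular probes in 49.6%. Among probes named for a fixed list of spermatid genes, 2 of 14 tested probes rose and 1 fell between P21 and P30. The other counts of rises and falls were 1 and 1 of 7 for spermatocyte names, 0 and 0 of 2 for spermatogonia, 0 and 0 of 3 for Sertoli cells, 0 and 0 of 7 for Leydig cells and 0 and 1 of 13 for other somatic cells (limma). All tested probes rose in 7.48% and fell in 8.42% of cases. The labelled tissue could therefore not be checked against its defining markers. In 1992 pairs of tested probes with the same symbol the correlation across pairs was 0.170 for the mean level and 0.141 for the change from P21 to P30, and probes are not independent replicates. Probes are given below by identifier, as row labels that name no transcript.

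The deposited values are log2 signals with no background subtraction, quantile normalized over the arrays. Before normalization the median signal of the regular probes was 166.7 and 199.6 on the P30 wild-type arrays, against 181.3 and 150.5 on the P21 wild-type arrays, within the range of 132.5 to 213.7 over all 16 arrays. At a detection p under 0.05, 13747 and 13577 regular probes were detected at P30, against 14508 and 14498 at P21. A probe was tested if it was detected on at least 2 of the 16 arrays, which left 17355. The number of arrays limits the precision.

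Between P21 and P30 the wild-type testis changed in both directions, and the rises were larger than the falls. Of 17355 tested probes 1298 were higher (7.48%) and 1462 lower (8.42%) at P30, together 2760 (15.9%), at a Benjamini-Hochberg adjusted p under 0.05 in a limma model. Asking also for a log2 change of at least 1, a 2-fold change, kept 823 of the higher probes (4.74% of those tested) and 64 of the lower ones (0.369%). After normexp background correction these counts were 1179 and 409. The median change was 1.31 on the log2 scale among the probes that rose, with quartiles of 0.79 and 2.21. Among the probes that fell it was -0.63, with quartiles of -0.77 and -0.51. In the deposited values rises of at least 4-fold were found for 370 probes, of at least 8-fold for 142 and of at least 16-fold for 33, whereas 1 probe fell by at least 4-fold. Over all tested probes the median change was -0.07.

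**Figure D1:**
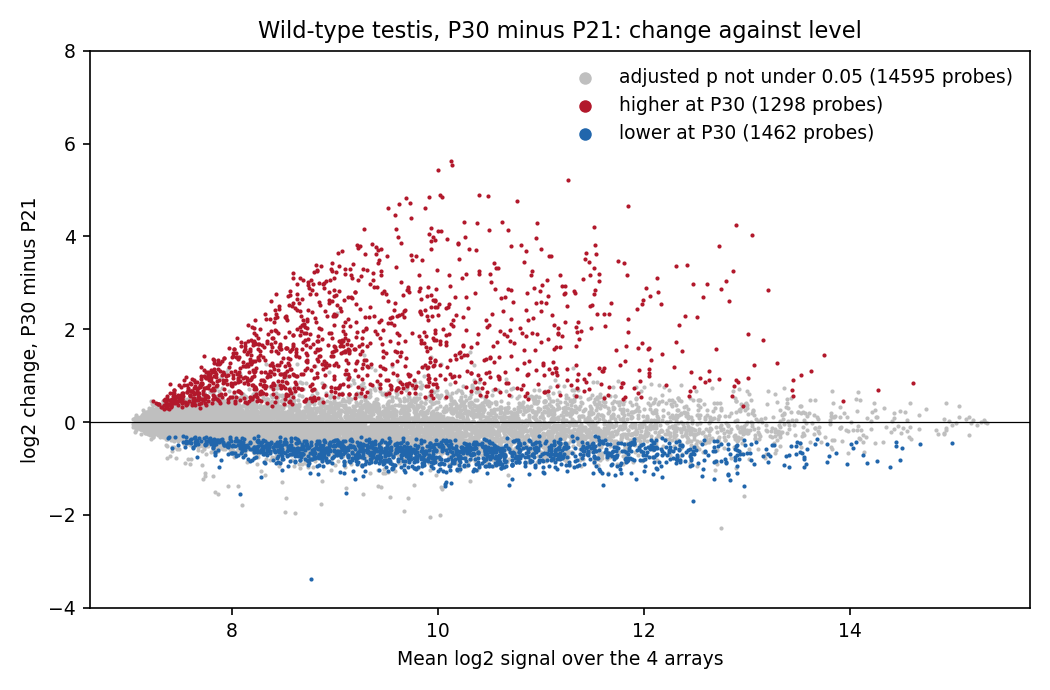
Change in log2 signal from P21 to P30 in wild-type testis (vertical axis) against the mean log2 signal over the 4 arrays (horizontal axis), 1 point per tested probe. The 1298 probes higher at P30 fan out to a log2 change of 5.63, while nearly all of the 1462 lower probes lie within a band just below 0 and 1 probe lies at -3.38.

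The number of falls rested on single arrays and the number of large rises did not. Without P21 replicate 2, 819 probes were higher and 146 lower, and without P30 replicate 2, 821 and 185. Without P21 replicate 1, 1400 were higher and 1614 lower, and without P30 replicate 1, 1514 and 1773. Rises of at least 1 log2 numbered 621 to 1007 with an array left out, against 22 to 390 falls of that size. With the 4 arrays fitted alone, 342 probes were higher and 14 lower.

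The 6 largest rises among the 1055 rising probes that were detected on all 4 arrays started from a low signal at P21 and reached the bright part of the scale at P30. ILMN_1222251 had log2 signals of 13.34 and 14.39 at P30, against 8.20 and 9.11 at P21. Its mean was 13.87 ± 0.75 at P30 and 8.66 ± 0.64 at P21 (SD, n = 2 each), a 37.0-fold rise (log2 change 5.21, SE 0.31; limma adjusted p = 4.67e-07). ILMN_1217706 had 12.54 and 13.16 at P30, against 7.78 and 8.13 at P21, a log2 change of 4.89 (SE 0.18; limma adjusted p = 3.31e-08). In both probes each P30 array lay well clear of the P21 arrays, and replicate 2 was the higher array at each age.

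The remaining 4 showed the same arrangement. Log2 signals of ILMN_2813524 were 12.15 and 12.78 at P30, against 7.48 and 7.68 at P21 (log2 change 4.88, SE 0.17; limma adjusted p = 1.85e-08). For ILMN_1247947 they were 12.35 and 13.51 at P30, against 7.77 and 8.32 at P21 (log2 change 4.88, SE 0.29; limma adjusted p = 4.82e-07). ILMN_2962473 gave 11.93 and 13.01 at P30, against 7.49 and 7.72 at P21, a log2 change of 4.86 (limma adjusted p = 1.71e-07). These 3 probes were at or near background at P15, where each was detected on 0 of 2 wild-type arrays. ILMN_2619316 gave 11.61 and 13.07 at P30, against 7.45 and 7.52 at P21, a log2 change of 4.85 (limma adjusted p = 9.42e-07). The SD of its 2 arrays was 1.03 at P30 and 0.05 at P21, so the spread lay almost wholly at P30.

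The 4 probes with fitted rises of at least 32-fold, named after their values were seen, were ILMN_1222251 and 3 others detected on both P30 arrays and on 1 of 2 P21 arrays, so that their P21 means are partly background and their changes set no order. ILMN_1228907 had 12.28 and 13.60 at P30, against 7.23 and 7.39 at P21, a log2 change of 5.63 (SE 0.30; limma adjusted p = 1.99e-07). ILMN_1222337 and ILMN_2643786 had log2 changes of 5.55 and 5.42 (limma adjusted p = 1.71e-07 and 1.92e-07). All 4 were detected on 0 of 2 arrays in P30 and in P21 knockout testis.

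**Figure D2:**
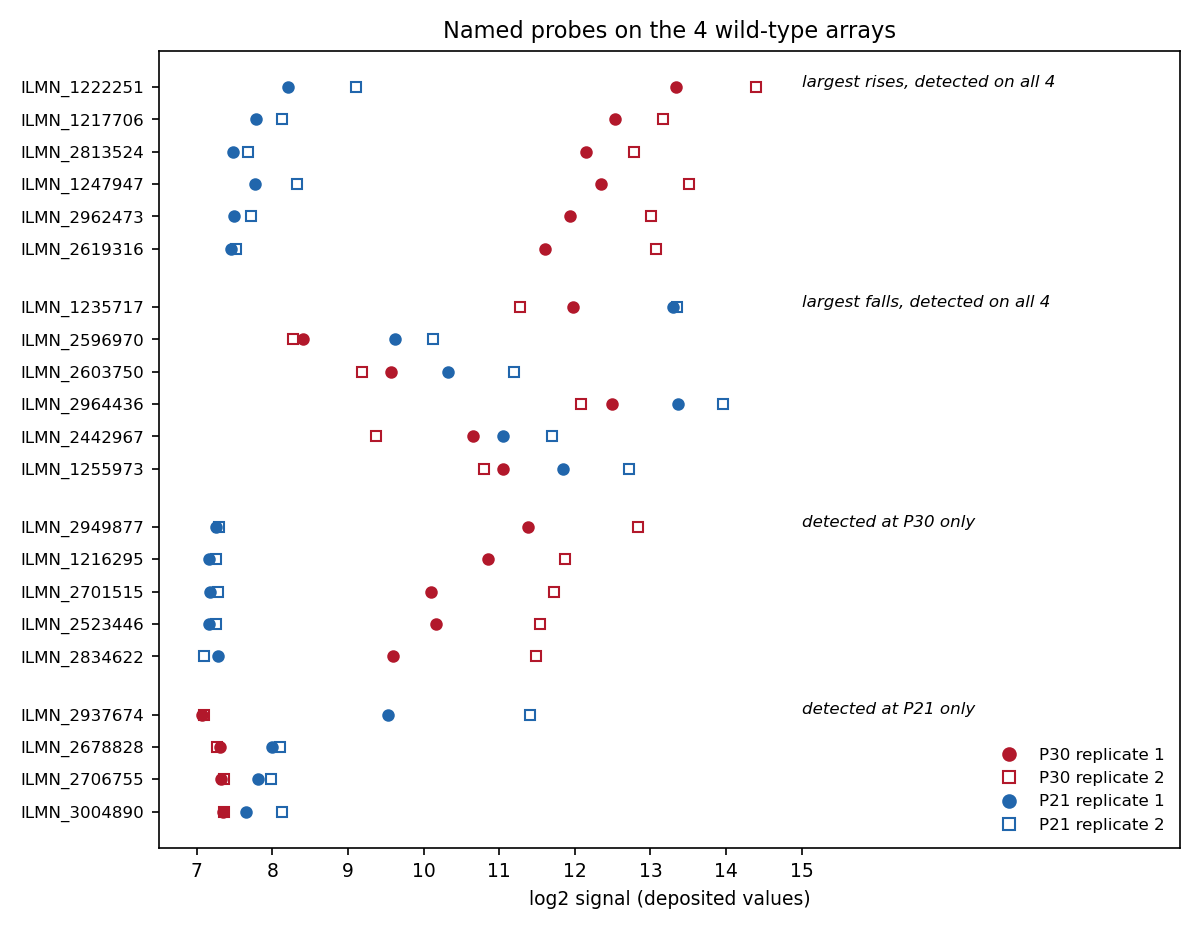
Log2 signal of 21 probes chosen by rule, on the 2 P30 and the 2 P21 wild-type arrays, 1 point per array. In each of the 6 largest rises and the 5 probes detected at P30 only, both P30 points lie to the right of both P21 points, with P30 replicates far apart in several of them (SD up to 1.34, n = 2). In the 6 largest falls both P30 points lie to the left of both P21 points, and ILMN_1235717 has the largest change, -1.71.

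Detection calls give a view of the step that the log2 fit does not use. Of 25689 regular probes 270 (1.05%) were detected on both P30 arrays and neither P21 array, and 553 (2.15%) on both P21 arrays and neither P30 array. Most of the second set moved little: their median change was -0.16 on the log2 scale, and 11 of 553 passed the test as lower, against 8.42% of all tested probes. Of the 270 probes detected at P30 only, 144 passed as higher, against 7.48% of all tested probes. Detection is called from the same signals, so the direction of both sets was given by how they were chosen. Of those 270, 197 were detected on each P60 array of the wild type, 193 on neither P15 wild-type array, and 200 on neither P30 knockout array. Over all regular probes these shares were 47.8%, 41.5% and 43.3%. The way the 270 were chosen favours each of these counts, so the shares are no fair baseline and the counts only describe the set. Many of the 270 were dim: their median P30 level was 7.59, and the lowest detected signals on the P30 arrays were 7.36 and 7.37. Asking for a detection p under 0.01 gave 324 and 453 probes.

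The 5 brightest of those 144 probes are given with a lower bound, since P21 was not well above background. The bound compares the P30 mean with the lowest signal called detected on each P21 array. ILMN_2949877 had log2 signals of 11.38 and 12.83 at P30, against 7.25 and 7.29 at P21, and was at least 27.6-fold higher at P30 (limma adjusted p = 8.84e-07). ILMN_1216295, with 10.85 and 11.87 at P30 against 7.16 and 7.26 at P21, was at least 16.5-fold higher (limma adjusted p = 5.83e-07). For both, every P30 array lay more than 3 log2 units above every P21 array.

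ILMN_2701515 had 10.09 and 11.73 at P30, against 7.18 and 7.28 at P21, at least 12.0-fold higher (limma adjusted p = 1.84e-05). ILMN_2523446 had 10.17 and 11.54 at P30, against 7.16 and 7.26 at P21, at least 11.6-fold higher (limma adjusted p = 6.43e-06). ILMN_2834622 had 9.60 and 11.49 at P30, against 7.28 and 7.10 at P21, at least 9.34-fold higher (limma adjusted p = 0.000145). With the 4 arrays fitted alone ILMN_2701515 and ILMN_2834622 lost their calls (adjusted p = 0.0614 and 0.0955). Without P30 replicate 2 the log2 changes of the 5 were 4.11, 3.65, 2.86, 2.96 and 2.41 in the order given, and without P30 replicate 1 they were 5.56, 4.66, 4.50, 4.33 and 4.30. In all 5 the signal of P30 replicate 1 was the lower of the pair and matched P60 less closely than replicate 2 did. Without background subtraction the changes of dim probes are compressed: after normexp background correction the log2 changes of these 5 were 1.48 to 1.69 times as large.

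Of the 11 probes detected at P21 only that fell, the brightest stood apart from all others. ILMN_2937674 had log2 signals of 7.07 and 7.09 at P30, against 9.52 and 11.41 at P21, and was at least 8.59-fold lower at P30 (limma adjusted p = 0.00405). Its fitted log2 change was -2.44 without P21 replicate 2 and -4.33 without P21 replicate 1, and the call was lost with the 4 arrays fitted alone (adjusted p = 0.092). In the deposited values it is the single probe that fell by at least 4-fold. In knockout testis it had 7.18 and 7.15 at P30, against 10.50 and 10.35 at P21. It was 7.14 and 9.49 on the P60 wild-type arrays and 7.39 and 7.29 on those of P15, so 1 of the 2 P60 arrays was also high. The next 3, ILMN_2678828, ILMN_2706755 and ILMN_3004890, were at least 1.60-fold, 1.45-fold and 1.44-fold lower at P30 (limma adjusted p = 0.0291, 0.00743 and 0.0229). ILMN_2678828 lost its call with any 1 of the 4 arrays left out (adjusted p = 0.0555 to 0.182), ILMN_3004890 in each such fit but the one without P21 replicate 1 (0.0559 to 0.235) and with 75th percentile scaling (0.0503), and ILMN_2706755 without P21 replicate 2 (0.0905). With the 4 arrays fitted alone all 3 calls were lost (adjusted p = 0.0599, 0.113 and 0.202 in the order named above). With normexp correction the log2 changes of these 4 were 1.72 to 2.91 times as large. That of ILMN_2678828 was then -2.11, so ILMN_2937674 was no longer the only fall of at least 4-fold.

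The 6 largest falls among 1439 falling probes detected on all 4 arrays were modest. ILMN_1235717 had 11.97 and 11.28 at P30, against 13.30 and 13.35 at P21, a 3.26-fold fall (log2 change -1.71, SE 0.18; limma adjusted p = 3.45e-05). ILMN_2596970 had 8.40 and 8.27 at P30, against 9.62 and 10.13 at P21, a log2 change of -1.54 (SE 0.26; limma adjusted p = 0.00211). ILMN_2964436 had 12.49 and 12.08 at P30, against 13.36 and 13.96 at P21, a log2 change of -1.37 (SE 0.24; limma adjusted p = 0.00274). The ages did not overlap in these 3 probes, which kept their calls with any 1 of the 4 arrays left out. With the 4 arrays fitted alone ILMN_2596970 kept its call (adjusted p = 0.0472), and ILMN_1235717 and ILMN_2964436 did not (adjusted p = 0.0598 and 0.0967).

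The other 3 rested on the second replicates. ILMN_2603750 had 9.57 and 9.19 at P30, against 10.32 and 11.20 at P21 (log2 change -1.38, SE 0.37; limma adjusted p = 0.027). Without P21 replicate 2 its adjusted p was 0.256, and without P30 replicate 2 it was 0.205. ILMN_2442967 had 10.65 and 9.37 at P30, against 11.06 and 11.69 at P21 (log2 change -1.36; limma adjusted p = 0.0236), with adjusted p-values of 0.215 and 0.232 when those arrays were left out. ILMN_1255973 had 11.05 and 10.79 at P30, against 11.84 and 12.72 at P21 (log2 change -1.35; limma adjusted p = 0.00607), with 0.0665 and 0.0648. In each of these probes the gap between the nearest P30 and P21 arrays was smaller than the gap between the replicates of at least 1 age.

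By their level at P15, which uses no array of the step, the dimmest probes held most of the rises and the brightest most of the falls. The tested probes were divided into 5 equal bins by the mean of the 2 P15 wild-type arrays, a choice made after the data were seen. In the dimmest bin, with P15 means up to 7.34, 18.8% rose and 0.0288% fell, and in the brightest, from 10.04 up, 1.84% rose and 29.6% fell. Of the 823 rises of at least 1 log2, 471 lay in the dimmest bin and 21 in the brightest. Probes at background at P15 have little room to fall. Bins by the mean over all 16 arrays, which hold the compared arrays too, put the largest share of rises (14.6%) in the middle bin and 1.73% in the dimmest, since a probe that rises far leaves the dimmest bin.

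Little change was seen in the 4 brightest probes at P30, although 29.6% of the brightest bin by P15 level fell. The 4 with the highest P30 means, ILMN_2894900, ILMN_1248254, ILMN_1241149 and ILMN_1254421, had P30 means between 15.27 and 15.32 and changes between -0.02 and 0.05 (limma adjusted p = 0.797, 0.981, 1 and 0.963). Quantile normalization gives every array the same highest values, so a probe at the top of the scale on all 4 arrays can show little change. ILMN_1248254 and ILMN_1241149 had P15 wild-type signals of 10.31 and 11.48, and of 10.39 and 11.77, so they reached the top of the scale by P21.

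In raw signal the probes that rose by at least 1 log2 took up 9.72% and 16.3% of the summed regular-probe signal on the P30 arrays, against 2.85% and 2.49% on the P21 arrays. All 1462 probes that fell, of any size, took up 13.6% and 10.8% at P30, against 18.0% and 20.6% at P21, and the 64 that fell by at least 1 log2 took up 0.623% and 0.465% at P30, against 1.03% and 1.39% at P21. These probes were chosen by the test of the same arrays, so the shares describe them and test nothing.

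The 2 arrays of each age did not stand at the same point along the wild-type change from P15 to P60. Each array was placed on a scale where 0 is the mean of the P15 and 1 the mean of the P60 wild-type arrays, by projecting its log2 values for all 17355 probes onto the P60 minus P15 difference, which uses no P21 or P30 array. P30 replicates 1 and 2 stood at 0.813 and 0.962, against 0.588 and 0.476 for P21 replicates 1 and 2. The means were 0.887 ± 0.105 at P30 and 0.532 ± 0.079 at P21 (SD, n = 2 each). Across the 4 pairings of a P30 with a P21 array the difference ran from 0.225 to 0.486. With 2 arrays against 2 an exact permutation test cannot give a two-sided p below 0.333, so none is given. Between wild type and knockout, replicate 2 minus replicate 1 had a correlation across probes of 0.61 at P21 and 0.09 at P30. Whether the gaps between replicates lie in the animals or in the arrays was not tested.

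The replicate gaps in position can be given as correlations across probes, which restate those positions and are no separate observation. P30 replicate 2 minus replicate 1 had a correlation of 0.593 with P60 minus P15 over 17355 probes, and P21 replicate 2 minus replicate 1 had one of -0.488. Replicate 2 was thus the later-looking array at P30 and the earlier-looking one at P21. The root-mean-square log2 difference was 0.343 between the P30 arrays and 0.314 between the P21 arrays, and between ages it ran from 0.500 for the first replicates to 0.793 for the second replicates. The median raw signal was higher on P30 replicate 2 and lower on P21 replicate 2 than on the other array of that age, and its part in these differences was not tested.

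**Figure D3:**
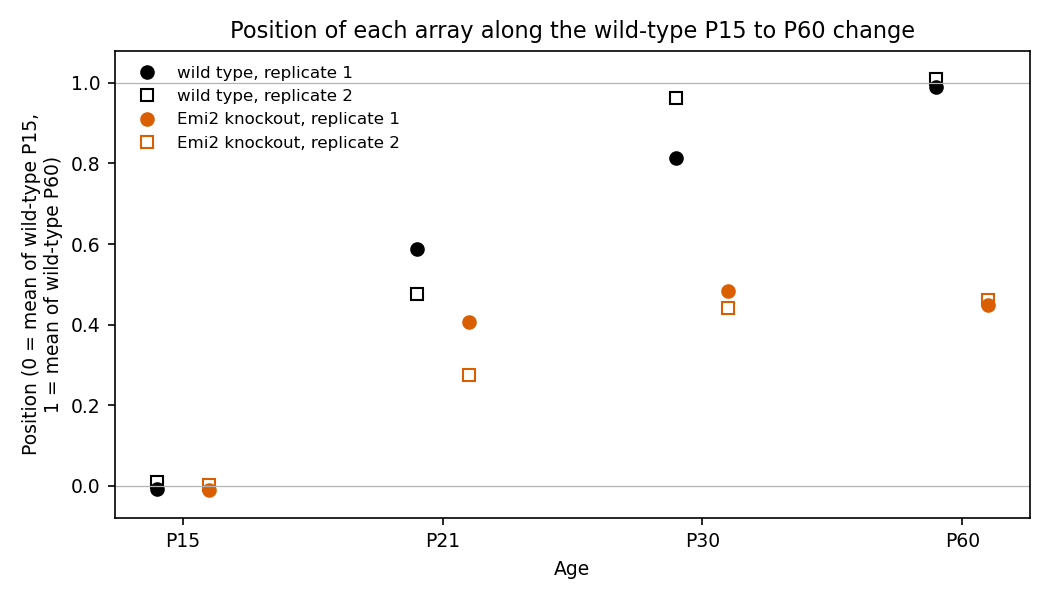
Position of each of the 16 arrays (vertical axis, no unit) along the wild-type change from P15 (0) to P60 (1), by age, with filled circles for replicate 1, open squares for replicate 2, black for wild type and orange for Emi2 knockout. Wild-type arrays stand between 0.813 and 0.962 at P30 and between 0.476 and 0.588 at P21, while knockout arrays stand between 0.442 and 0.483 at P30 and between 0.275 and 0.406 at P21.

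The step largely continued the course between P15 and P60, a comparison that shares no array with it. Over all tested probes 22.9% were higher and 39.0% lower at P60 than at P15, 62.0% in all. Of the 1298 probes that rose from P21 to P30, 1251 (96.4%) were higher at P60 than at P15 and 4 lower. Seen from the longer comparison, the 1251 are 31.4% of its 3981 higher probes. Of the 1462 that fell, 1346 (92.1%) were lower at P60 than at P15 and 24 higher, and these 1346 are 19.9% of the 6771 lower probes. The 2 comparisons have no array in common but share 1 estimate of each probe's spread, so a probe with little spread passes more easily in both.

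Median levels show how far each list had come. The 823 probes that rose by at least 1 log2 had median log2 signals of 7.27, 8.24, 10.47 and 11.05 in wild type over the 4 ages, from P15 to P60. In knockout the same medians were 7.27, 7.33, 7.43 and 7.42. At P30 823 and 823 of the 823 were detected on the wild-type arrays, against 724 and 741 at P21, whereas 448 and 452 were detected on the P30 knockout arrays. The 1462 probes that fell had medians of 10.83, 10.24, 9.52 and 9.32 over the 4 ages in wild type, and of 10.86, 10.44, 10.08 and 10.04 in knockout. Since both lists were chosen on the wild-type step, their wild-type change is inflated by that choice.

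**Figure D4:**
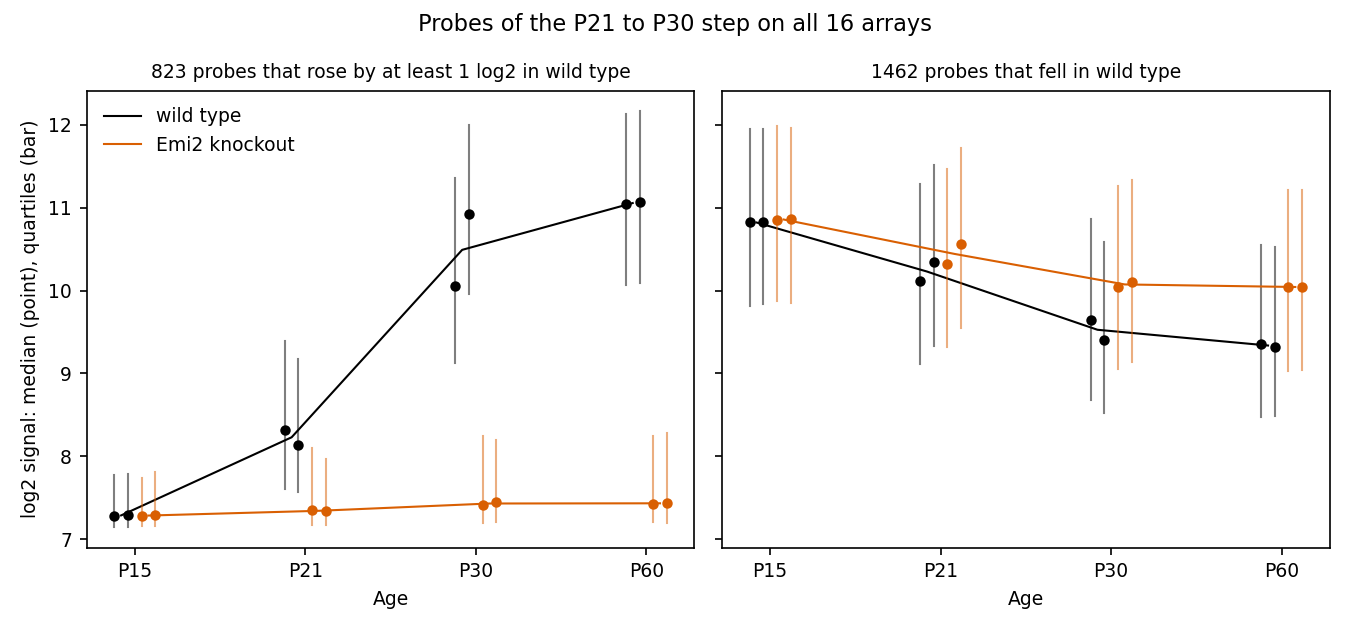
Median (points) and quartiles (bars) of log2 signal on each of the 16 arrays, by age, for the 823 probes that rose by at least 1 log2 (left) and the 1462 that fell (right) between P21 and P30 in wild type. Black is wild type and orange is Emi2 knockout, and lines join group means of the medians. In wild type the left-hand list lies near 11 at P60, while in knockout it stays below 7.5 at every age.

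Rising probes differed widely in timing on the deposited log2 scale, and falling probes less so. Changes of dim probes are compressed on that scale, and the part of this in the spread was not tested. Of 2334 probes (13.4% of those tested) higher at P60 than at P15 by at least 1 log2, 817 (35.0%) had reached at least 75% of that change by P21 and 625 (26.8%) less than 25%. At P30, 1883 (80.7%) had reached at least 75% and 4 less than 25%. The median share was 0.89 at P30 and 0.56 at P21, with quartiles of 0.22 and 0.85 at P21. At least 75% at P30 together with under 25% at P21 was found for 342 probes (14.7%). Of 3060 probes (17.6%) lower at P60 by at least 1 log2, 171 (5.59%) had gone less than 25% of the way by P21 and 350 (11.4%) at least 75%. Their median share was 0.87 at P30 and 0.55 at P21, with quartiles of 0.44 and 0.66 at P21, and 63 (2.06%) had at least 75% at P30 and under 25% at P21.

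**Figure D5:**
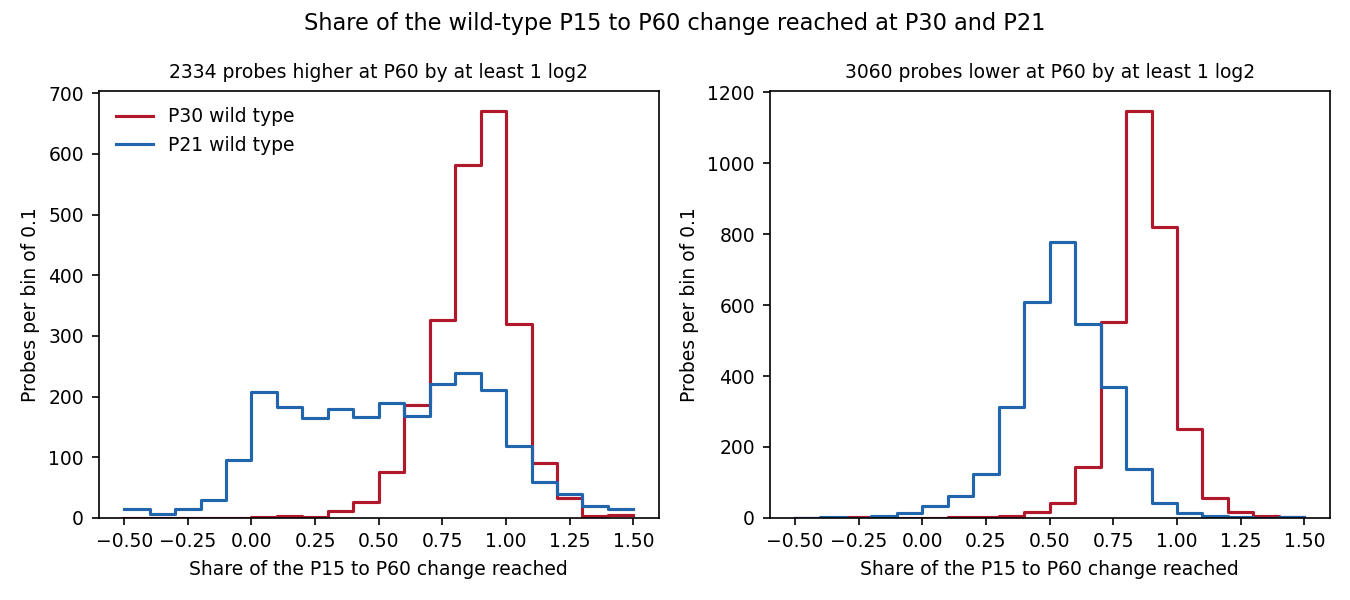
Number of probes (vertical axis) by the share of the wild-type P15 to P60 change reached at P30 (red) and P21 (blue), in bins of 0.1 whose end bins also hold all values beyond them. The 2334 rising probes (left) are spread over the whole range at P21, while the 3060 falling probes (right) form a single peak around 0.55.

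Fewer probes passed at the same step in Emi2 knockout testis, where 148 probes were higher (0.853%) and 87 lower (0.501%) at P30 than at P21, 1.35% in all. By at least 1 log2, 57 were higher (0.328%) and 18 lower (0.104%). This count was poorly fixed, from 14 without P21 knockout replicate 2 to 1439 without P21 knockout replicate 1, and was 1 with the 4 knockout arrays fitted alone. Without P30 knockout replicate 1 it was 29. The direct test of the difference between the steps, wild type minus knockout, found 712 probes more positive (4.10%) and 110 more negative (0.634%) in wild type, 4.74% in all. By at least 1 log2 these were 649 (3.74%) and 34 (0.196%). With 1 of the 8 arrays left out the total ran from 636 without P21 wild-type replicate 2 to 1258 without P30 wild-type replicate 1. Without the P30 array 238 were more negative, and without P30 wild-type replicate 2 there were 63.

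The genotypes were also compared over the lists of the P15 to P60 comparison, which use no array of either step. These lists hold probes that changed in wild type, so they lean towards wild type: of the 148 knockout rises, 84 lay among the 3981 probes higher at P60, 26 among the 6771 lower ones and 38 in neither list. The 2334 probes higher at P60 by at least 1 log2 had a median change of 0.59 from P21 to P30 in wild type and 0.21 in knockout. In wild type 1064 of them (45.6%) rose, against 7.48% of all tested probes, and in knockout 61 (2.61%), against 0.853%. The direct test found 652 (27.9%) more positive in wild type, against 4.10% of all tested probes, and 6 more negative. The 3060 probes lower at P60 by at least 1 log2 had a median change of -0.50 in wild type and -0.27 in knockout. In wild type 1028 of them (33.6%) fell, against 8.42% of all tested probes, and in knockout 61 (1.99%), against 0.501%. The direct test found the change more negative in wild type for 31 (1.01%), near the 0.634% of all tested probes, and more positive for 2.

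On the scale of position the wild-type step averaged 0.355, against 0.122 in knockout, where the 4 pairings ran from 0.036 to 0.208. Over the 3981 rising probes alone it was 0.375 in wild type and 0.101 in knockout. Over the 6771 falling probes alone it was 0.314 in wild type, with pairings from 0.15 to 0.478, and 0.169 in knockout, with pairings from 0.034 to 0.304. The ranges of the genotypes overlapped over the falling probes and not over the rising ones.

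Among probes detected on all 8 arrays of these groups, the 3 largest positive differences were flat or slightly down in knockout. ILMN_2740494 had log2 signals of 12.36 and 13.52 at P30, against 8.70 and 9.25 at P21, in wild type. In knockout it had 8.73 and 8.99 at P30, against 9.31 and 9.36 at P21. The difference between the steps was 4.44 (SE 0.42; limma adjusted p = 4.92e-05). ILMN_2604435 and ILMN_2476131 differed by 4.30 and 4.27 (limma adjusted p = 4.07e-05 and 1.27e-05), with log2 changes of 4.28 and 3.82 in wild type and of -0.02 and -0.46 in knockout (knockout adjusted p = 0.984 and 0.329).

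The 3 largest negative differences came from probes that rose in knockout over this interval (limma adjusted p = 1.45e-05, 0.000728 and 0.0384) and whose wild-type change did not pass (adjusted p = 0.199, 0.125 and 0.808). ILMN_2834777 had 10.15 and 10.22 at P30, against 10.34 and 10.73 at P21, in wild type, and 10.98 and 11.14 at P30, against 8.27 and 8.19 at P21, in knockout. The difference was -3.18 (SE 0.25; limma adjusted p = 1.29e-05). ILMN_2606088 had 11.67 and 11.45 at P30, against 11.90 and 12.28 at P21, in wild type, and 12.56 and 12.67 at P30, against 10.41 and 10.00 at P21, in knockout. Its difference was -2.93 (SE 0.31; limma adjusted p = 0.000101). In both, P30 knockout was the highest of these 4 groups. From P15 to P21 the wild-type means had already gone from 7.22 to 10.54 for ILMN_2834777 and from 8.78 to 12.09 for ILMN_2606088. The knockout means went from 7.41 to 8.23 and from 9.04 to 10.21 over those ages. That earlier interval was not tested. ILMN_3139952 differed by -2.89 (SE 0.73; limma adjusted p = 0.043), but its arrays disagreed, with 9.41 and 11.10 at P30 in knockout and 7.45 and 8.84 at P21 in wild type. That call was lost in 8 of the 15 alternative fits.

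A few probes ran against the general course. The 4 that rose at the step yet were lower at P60 than at P15, named after their values were seen, were ILMN_2628925, ILMN_2734262, ILMN_2918278 and ILMN_2972585. ILMN_2734262 had 10.33 and 10.45 at P30, against 9.31 and 9.84 at P21 (log2 change 0.81; limma adjusted p = 0.0178), and 10.57 and 10.49 at P60, against 11.24 and 10.96 at P15. All 4 had their lowest wild-type mean at P21. The 24 probes that fell at the step yet were higher at P60 peaked at P21 by their medians, which were 9.51, 10.87, 10.19 and 10.43 over the 4 ages. Their changes at the step ran from -1.05 to -0.39.

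Probes that passed in opposite directions in the 2 genotypes were rare, 4 of 17355, and were also named after their values were seen. ILMN_1241268 and ILMN_1259322 rose in wild type, by 0.46 and 0.87 on the log2 scale (limma adjusted p = 0.029 and 0.00186), and fell in knockout, with changes of -0.61 and -0.70 (adjusted p = 0.043 and 0.0446). ILMN_1259322 averaged 10.79 ± 0.29 at P30 and 9.93 ± 0.21 at P21 in wild type, and 9.38 ± 0.01 at P30 and 10.07 ± 0.22 at P21 in knockout (SD, n = 2 each). ILMN_2522801 and ILMN_2762019 went the other way, with changes of -0.91 and -0.50 in wild type (limma adjusted p = 0.0149 and 0.0338) and 1.04 and 0.75 in knockout (adjusted p = 0.043 and 0.0348). The difference between the steps passed for all 4 (limma adjusted p = 0.00287, 0.000533, 0.00188 and 0.00219).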

How the data were processed

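Whole-testis RNA was hybridised to 1-colour Illumina bead arrays. Per the file headers, 1 deposited table holds a non-normalized signal intensity and a detection p-value for each probe and array. The detection value was read as 1 minus the p-value because it rose with signal in regular probes (lowest Spearman correlation 0.948). In control rows, which were not tested, it fell with signal (Spearman correlation at most -0.953). The authors' log2 values form a second deposited table. Quantile normalization of the log2 intensities over 26511 rows, without background correction, recovered them to within 0.00276, and every array has a median of 7.39. The submitters' processing notes name limma, and slides and scan dates are not given in the sources used here.

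Rows with identifiers from ILMN_1343048 to ILMN_2038782 were taken as controls (822) and left out. The 17355 probes detected (p under 0.05) on 2 or more arrays were fitted with limma 3.58.1 in R 4.3.3, on the deposited log2 values of all 16 arrays as 8 group means with no other terms (8 residual and 3.55 prior degrees of freedom). Adjusted p-values are from this model, or from the alternative fit named beside them, by Benjamini-Hochberg over all probes tested in that fit. On simulated arrays with 17355 probes, the P30 minus P21 wild-type contrast found 50 of 50 rises and 50 of 50 falls of 2 on the log2 scale, 42 and 38 of 50 at a change of 1, and 10 probes that had not been changed. The simulated noise was independent for each probe and array, without the shared deviations of real replicates. These rates therefore check the code and do not carry over to the real arrays.

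Probes were named by rule: the 6 largest rises and 6 largest falls detected on all 4 arrays, the 5 and 4 brightest passing probes detected at 1 age only, the 3 largest differences of the steps in each direction among probes detected on all 8 arrays, and the 4 brightest at P30. The members, lists and tests were chosen with earlier results of these data known. Alternatives were normexp background correction (offset 16), 75th percentile scaling, other filters, fits of the compared arrays alone, an intensity trend, a replicate block and each array left out.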

Additional observations from a re-analysis of the deposited data

Results flagged for a closer look

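For 18 of the named probes the direct limma test found that the step from P21 to P30 differed between wild type and knockout, and each value here is wild type minus knockout on the log2 scale. Of these, 6 were named for a large difference of the steps and 11 for their wild-type rise, which is a term of that difference, so the choice largely set the outcome. Among the largest wild-type rises it was 5.24 for ILMN_1222251, 4.77 for ILMN_1217706, 4.72 for ILMN_2813524, 4.98 for ILMN_1247947, 4.75 for ILMN_2962473 and 4.97 for ILMN_2619316. Among the probes detected at P30 only it was 4.95 for ILMN_2949877, 4.12 for ILMN_1216295, 3.74 for ILMN_2701515, 3.73 for ILMN_2523446 and 3.34 for ILMN_2834622. Of these 11 probes 9 were detected on no P30 or P21 knockout array, so their knockout change is one background level minus another, and the 5 last were not detected on the P21 wild-type arrays either. Their differences are fitted values at background, not measured sizes. The largest differences among probes detected on all 8 arrays were 4.44 for ILMN_2740494, 4.30 for ILMN_2604435, 4.27 for ILMN_2476131, -3.18 for ILMN_2834777, -2.93 for ILMN_2606088 and -2.89 for ILMN_3139952.

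Of the 6 largest falls, ILMN_1235717 alone passed that test, with -1.43 (limma adjusted p = 0.00415). It had log2 signals of 11.97 and 11.28 at P30 against 13.30 and 13.35 at P21 in wild type, and 13.24 and 13.41 at P30 against 13.62 and 13.59 at P21 in knockout.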

How the results depend on the processing

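Of 390 alternative values for named probes 354 kept their side of the threshold, 36 lost it and 0 passed in the opposite direction. The losses were mostly falls. Among the brightest probes at P30, small changes that did not pass could switch sign. That of ILMN_1248254 was -0.02 in the main fit and 0.11 with 75th percentile scaling. Fitting only the arrays compared, which leaves few degrees of freedom, gave 356 probes for the wild-type step (342 higher, 14 lower, of which 340 and 5 by at least 1 log2), 1 for the knockout step (0 higher, 1 lower; with all 16 arrays limma gave 148 and 87, and 3147 at an unadjusted p under 0.05) and 373 for the difference of the steps (358 and 15). Normexp correction gave 409 falls of at least 1 log2, against 64, and 56 more negative differences. The intensity trend gave 71 of those and 51 lower probes at the knockout step. With an array left out, the wild-type step ran from 965 to 3287 probes, with 819 to 1514 higher and 146 to 1773 lower, and 22 to 390 lower by at least 1 log2. The knockout step ran from 14 to 1439 (11 to 826 higher, 3 to 613 lower), and the difference of the steps from 636 to 1258 (63 to 238 more negative). The cause of these shifts was not tested. Whether more probes rose or fell was not settled, with 47.0% of calls higher in the deposited values, 55.7% with normexp, 55.5% with the trend and 49.9% with 75th percentile scaling.

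Replicate numbers were not taken to pair the arrays, since 6 of 28 correlations of replicate 2 minus replicate 1 between groups were over 0.1 (range -0.25 to 0.61). P21 wild type, P21 knockout and P30 knockout did deviate together, with 0.61 between the P21 groups, 0.33 between P21 wild type and P30 knockout and 0.30 between the knockout groups. With the replicate block the wild-type step had 1298 higher and 1373 lower probes, the knockout step 317 in all and the difference of the steps 841. A crossed block within the 4 arrays, added after the data were seen because their correlation was -0.24, gave 1119 and 1186.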
